A study of Mus musculus with 25 samples.

Results

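The nuclear genes for the subunits of the respiratory chain were followed in the pituitaries of 25 hpg mice. They were taken by symbol, with names that begin with Nduf (a, b, c, s or v), Cox4 to Cox8, Uqcr or Atp5, together with Sdha, Sdhb, Sdhc and Sdhd. Rows whose symbol marks a pseudogene or an antisense RNA, 7 in all, were left out. Subunits under other symbols, such as Cyc1 (cytochrome c1 of complex III), were not taken by this rule. The rule found 97 genes, of which 91 had a mean of at least 3 on the deposited scale, among 19141 genes of the table that passed the same minimum. That scale is the regularized log (rlog), a log2 expression value scaled between libraries and shrunken towards the mean of the gene, so differences of low genes are understated. By complex, the 91 were 36 genes of complex I, 4 of complex II, 8 of complex III, 15 of complex IV and 16 of complex V, 79 structural subunits in all. The other 12 were caught by the same letters and were described apart: the complex I assembly factors Ndufaf1 to Ndufaf8, Cox7a2l, Atp5s, and Cox6c2 and Ndufb4c, which the annotation calls processed pseudogenes.

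Respiratory chain complexes I to IV pass electrons from NADH and succinate to oxygen in the inner mitochondrial membrane and, except for complex II, pump protons out of the matrix. Complex V, the ATP synthase, lets the protons back in and makes ATP. Most subunits are encoded in the nucleus and imported, complex II wholly so, while a few core subunits of the other complexes are encoded by the mitochondrial genome. Endocrine cells of the pituitary, which make and secrete peptide hormones, draw on this ATP.

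All animals were homozygous for the hpg mutation (hpg/hpg), which removes gonadotropin-releasing hormone (GnRH), the hypothalamic peptide that drives gonadotropes. The groups were 6 females given GnRH, 5 females given placebo, 8 males given GnRH and 6 males given placebo, with 1 library of polyadenylated RNA per animal. The submitters' design text speaks of 5 to 7 animals a group, and the sample labels, which give 8 for GnRH males, were followed. Injections were intraperitoneal, 1 µg of GnRH or saline each day for 10 days, and tissue was taken 1 h after the last one. No wild-type animals were analysed here, so both placebo groups also lack GnRH. Animals keep their label numbers, 1 to 25. Whole pituitaries were measured, so fewer cells of a type and less RNA per cell cannot be told apart.

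The libraries fitted their labels. Xist lay between 7.90 and 8.89 in males and between 13.76 and 14.32 in females, and the growth hormone gene Gh between 21.1 and 21.9 in all 25 animals. Of 5 gonadotrope genes, 1 in females and 2 in males were higher with GnRH at an adjusted p under 0.05 (limma). Of all genes tested 0.0993% in females and 0.496% in males passed in either direction. Correlations between any pair of libraries lay between 0.993 and 0.998, and no counts were at hand, so the depth of the libraries is unknown.

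Per length of transcript, most subunits of the chain lay in a band of a few log2 units. Levels of different genes are given as rlog minus log2 of the transcript length in kb, since longer transcripts collect more reads. In complex I this level ran between 7.63 for the accessory subunit Ndufb2 and 11.54 for Ndufa1, an accessory membrane subunit encoded on the X chromosome. The place of Ndufb2 rests on a transcript length of 2413 bases, since its mean rlog of 8.91 was above that of Ndufc1 (8.68). In complex II the level per kb ran between 8.62 for the membrane anchor Sdhc and 10.63 for the flavoprotein Sdha. In complex III the range was 9.50, for the Rieske iron-sulfur protein Uqcrfs1, to 11.82, for the hinge protein Uqcrh. In complex V it was 9.84, for the small membrane subunit Atp5mpl, to 12.06, for the ε subunit Atp5e, leaving aside Atp5g1, whose length is not settled. Complex IV had the widest range, 5.47 for Cox4i2 to 12.02 for Cox8a, among its 15 genes above the minimum.

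That width came from paralogs, and in each such family of complex IV the form known from most tissues was the higher one in 25 of 25 animals. Cox4i1, the common form of subunit 4, exceeded Cox4i2, known from lung, by 6.09 ± 0.13 on the log2 scale per kb (SD over 25 animals). Cox6a1, the form known from liver, exceeded the heart and muscle form Cox6a2 by 9.35 ± 0.18. Cox6b1 exceeded Cox6b2, known from testis, by 3.93 ± 0.18, the smallest gap between a common and a tissue-restricted form here. Cox7b exceeded Cox7b2 by 7.08 ± 0.16. Cox8a exceeded the heart and muscle form Cox8b by 7.91 ± 0.15 and the testis form Cox8c by 13.12 ± 0.15. Ndufa4, a complex IV subunit despite its name, exceeded its hypoxia-linked paralog Ndufa4l2 by 4.36 ± 0.13. Because rlog values are shrunken, the gaps to the lowest genes are understated.

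In the subunit 7a family Cox7a2l stood highest, 5.23 ± 0.12 above the heart and muscle form Cox7a1 and 0.42 ± 0.14 above Cox7a2, known from liver. Cox7a2l, also known as SCAF1, joins complexes III and IV into supercomplexes and is not a subunit of the enzyme itself. Its gap to Cox7a2 ranged from 0.07 to 0.75 over the animals. The proton-carrying c ring of complex V is encoded by Atp5g1, Atp5g2 and Atp5g3, whose mature proteins are the same. Atp5g3 exceeded Atp5g2 by 1.15 ± 0.13. The place of Atp5g1 was not settled, because its principal transcripts run from 596 to 4715 bases and its level per kb was 11.60 by the shortest and 8.61 by the longest.

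The 6 genes below the minimum were Cox6a2 (mean rlog 1.69), Cox7b2 (2.08), Cox8b (2.64), Cox8c (-2.22), Ndufa11b (1.92) and Ndufs6b (1.27). The members nearest above it were Cox7a1 at 4.72 and Cox4i2 at 5.01, so no gene lay close to the minimum on the upper side. These values chose the members and carry no test.

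**Figure D1:**
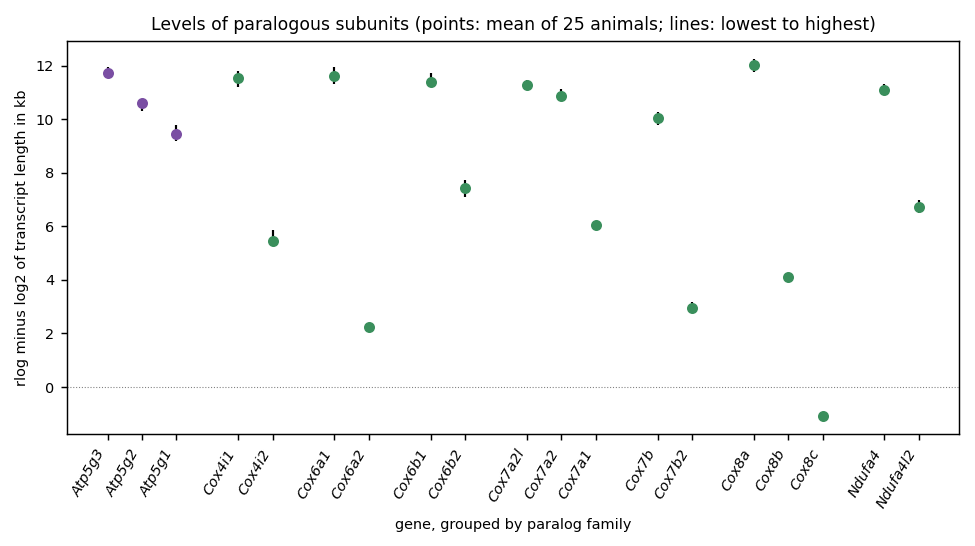
Level per kb (rlog minus log2 of transcript length in kb, vertical axis) of paralogous subunits, grouped by family, with points for the mean of 25 animals and lines from the lowest to the highest animal. The common forms of complex IV lie at 10.04 or above and their tissue-restricted paralogs at 7.45 or below; the position of Atp5g1 depends on the transcript used for its length.

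With GnRH against placebo in females, no member passed the test, and the differences were small and mostly positive. Of 91 members 0 had an adjusted p under 0.05, against 0.0993% of all genes tested (19 of 19141). At an unadjusted p under 0.05 there were 6 members (6.59%), against 9.57% of all genes. The difference was above 0 for 74 of 91 members (81.3%), against 50.1% of all genes, with a median of 0.07 for the members and 0.00 for all genes. Members varied together between animals, as described below, so counts of signs here and in later contrasts are not counts of independent genes. No member had values that separated GnRH females from placebo females, against 0.768% of all genes. The 95% interval lay within ±0.5, a 1.41-fold change, for 90 of 91 members, and the exception was Atp5e, whose interval reached 0.51.

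The tilt was uneven over the complexes. Complex IV was the only one with every difference above 0, 15 of 15, with a median of 0.11. Complex I had 30 of 36 above 0 (median 0.07), complex III 7 of 8 (median 0.08) and complex V 11 of 16 (median 0.07). Complex II had 2 of 4, with a median of 0.01, and the 12 assembly factors and others had 9 (median 0.05).

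The female median rested on few animals. Without GnRH female 10 it was 0.04, with 69 of 91 differences above 0. Without GnRH female 9 it was 0.12 (80 of 91), and without GnRH female 8 it was 0.11 (76 of 91). The 76 genes of cytosolic ribosomal proteins moved beside the members: 71 of 76 had a difference above 0 in females, with a median of 0.11 and 0 called. Their mean, set against its mean over 25 animals, ran from -0.16 to 0.17 in GnRH females and from -0.12 to 0.03 in placebo females. A fit with the mean level of those genes in each animal as a covariate was added after the values were seen. In it the female median of the members was -0.04 and 27 of 91 differences were above 0. The covariate itself averaged 0.04 in GnRH females and -0.07 in placebo females, against its mean over 25 animals. The fit therefore also takes out any effect of GnRH that the members share with these genes, which was not tested. That limit holds for each use of the covariate below.

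Values of the members with the smallest p in each complex show the overlap. Ndufa6 encodes an accessory subunit of complex I that binds the mitochondrial acyl carrier protein. Its rlog values ran from 10.26 to 10.86 in GnRH females (median 10.64), against 10.36, 10.52, 10.25, 10.32 and 10.36 in placebo females 1 to 5. GnRH females 6, 7, 10 and 11 lay above every placebo female, and GnRH females 8 and 9 lay among them. The difference was 0.21 (SE 0.087, adjusted p = 0.449).

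Cox4i2 had the smallest p in complex IV. It ran from 4.92 to 5.39 in GnRH females (median 5.08), against 5.05, 5.03, 4.92, 4.90 and 4.90 in placebo females 1 to 5. GnRH females 6 and 7, at 5.39 and 5.30, stood above the rest, and the groups overlapped. The difference was 0.18 (SE 0.070, adjusted p = 0.443). Pericytes are a known site of Cox4i2; of 9 pericyte and smooth muscle markers 8 had a difference above 0 in females and 0 were called. Their mean level ran from 8.07 to 8.69 in GnRH females and from 7.93 to 8.17 in placebo females, with none of the 9 under the minimum. Across the 25 animals, on deviations from group means, the correlation of Cox4i2 with these 9 markers had a median of -0.03 and ran from -0.28 to 0.62.

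Uqcr10, a small subunit of complex III, ran from 9.40 to 9.97 in GnRH females (median 9.77), against 9.41, 9.58, 9.55, 9.57 and 9.39 in placebo females 1 to 5. Again GnRH females 6, 7, 10 and 11 were above all placebo females and GnRH females 8 and 9 were not. The difference was 0.19 (SE 0.082, adjusted p = 0.467).

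In complex V the largest difference was that of Atp5e, the ε subunit of the central stalk. It ran from 10.61 to 11.31 in GnRH females (median 10.98), against 10.74, 10.77, 10.73, 10.59 and 10.59 in placebo females. GnRH females 7 and 10 were highest, and GnRH females 8 and 9 were within the placebo range. The difference was 0.27 (SE 0.12, adjusted p = 0.467).

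Atp5d, the δ subunit of the same stalk, was the member closest to the threshold when both sexes were averaged. It ran from 11.51 to 11.95 in GnRH females (median 11.76), against 11.43, 11.80, 11.57, 11.57 and 11.45 in placebo females 1 to 5. In males it ran from 11.44 to 11.72 with GnRH (median 11.67) and from 11.40 to 11.65 with placebo (median 11.52). Placebo female 2 was the one high placebo female, and the groups overlapped in both sexes. The difference was 0.17 (SE 0.073) in females and 0.13 (SE 0.065) in males, and 0.15 in the mean of both sexes with adjusted p = 0.148. Of the fits that left out 1 animal each, the one without placebo female 2 brought this mean under the threshold, at 0.18 (SE 0.047, adjusted p = 0.0440). In the mean of both sexes 0 of 91 members passed, against 1.71% of all genes, 68 of 91 differences were above 0, against 49.4%, and 4 members had an unadjusted p under 0.05, against 12% of all genes. The median of 0.03 was -0.03, with 18 of 91 above 0, when the ribosomal protein mean was a covariate. It was 0.05 without GnRH female 9, 0.01 without GnRH female 10, and 0.02 without GnRH female 6 or 7.

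Complex II had the lowest difference of all members in females. Sdha, which carries the flavin cofactor and oxidizes succinate, ran from 11.93 to 12.29 in GnRH females (median 12.03), against 12.22, 12.06, 12.16, 12.26 and 12.22 in placebo females 1 to 5. GnRH females 6, 7, 10 and 11, high for Ndufa6 and Uqcr10, were below all placebo females here, while GnRH female 9 was among them and GnRH female 8 above them. The difference was -0.12 (SE 0.063, adjusted p = 0.572). Among assembly factors the smallest p was that of Ndufaf7, an assembly factor of complex I, with a difference of 0.11 (adjusted p = 0.652).

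**Figure D2:**
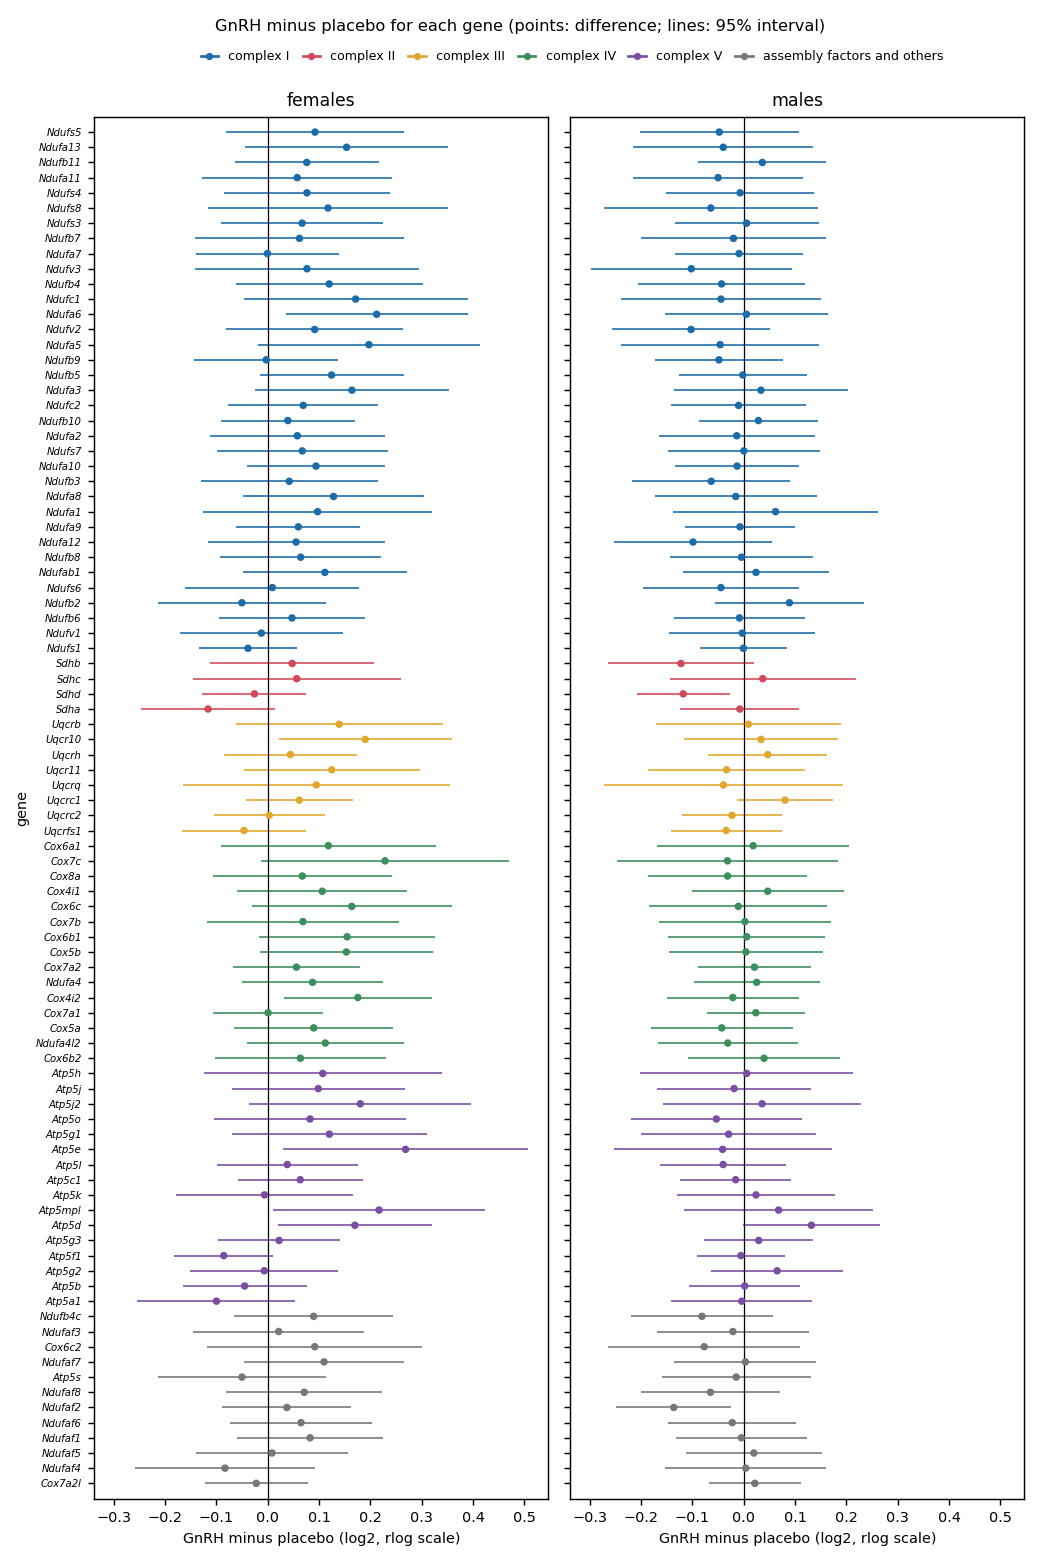
GnRH minus placebo for 90 of the 91 genes (horizontal axis, log2 on the rlog scale) in females and in males, with points for the difference and lines for its 95% interval, coloured by complex. Of all 91 genes 74 had a difference above 0 in females and 35 in males, and no gene passed the adjusted threshold in either sex.

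With GnRH against placebo in males, the differences were small and their direction was uneven over the complexes. Of 91 members 0 passed, against 0.496% of all genes (95 of 19141), and 2 members (2.2%) had an unadjusted p under 0.05, against 6.42% of all genes. Differences were above 0 for 35 of 91 (38.5%), against 48.5% of all genes, and the median was -0.01. No member separated GnRH males from placebo males, against 0.402% of all genes. All 91 intervals lay within ±0.5, and 80 of them within ±0.25. The median ranged from -0.03 without placebo male 12 to 0.01 without placebo male 15, where 25 and 58 of 91 differences were above 0. Complex I had 9 of 36 differences above 0, complex II 1 of 4 and complex III 4 of 8. Complex IV had 9 of 15, complex V 8 of 16, and the assembly factors and others 4 of 12. The male median was -0.03 with the ribosomal protein covariate (26 of 91 above 0) and -0.02 with quantile normalization (27 of 91).

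The members with the smallest p in males were Sdhd, a membrane anchor of complex II, and Ndufaf2, a complex I assembly factor. Sdhd ran from 9.33 to 9.50 in GnRH males (median 9.43) and from 9.43 to 9.66 in placebo males (median 9.51). Placebo males 12, 13 and 14, at 9.52, 9.66 and 9.63, stood above every GnRH male, while the other 3 placebo males lay within the GnRH range. The difference was -0.12 (SE 0.044, adjusted p = 0.445). Ndufaf2 ran from 7.32 to 7.61 in GnRH males (median 7.45) and from 7.53 to 7.70 in placebo males (median 7.55). GnRH males 20 and 24 reached into the placebo range. The difference was -0.14 (SE 0.055, adjusted p = 0.541). In the other complexes the smallest p belonged to Ndufv2, an iron-sulfur subunit of complex I, with a difference of -0.10 (adjusted p = 0.988), and to Uqcrc1, a core protein of complex III, with 0.08 (adjusted p = 0.858). In complex IV it was Cox4i1 at 0.05 (adjusted p = 0.999) and in complex V Atp5d, given above.

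The difference between the sexes in the effect of GnRH was tested directly, and 0 of 91 members and 0 of all 19141 genes passed, a background of 0%. Unadjusted p was under 0.05 for 2 members, Cox4i2 and Ndufaf2, a share of 2.2% against 2.76% of all genes. The effect in males minus that in females was -0.20 (SE 0.094) for Cox4i2 and -0.17 (SE 0.082) for Ndufaf2, both with adjusted p = 0.999. The median over the members was -0.09, and 18 of 91 were above 0, against 50.3% of all genes. Leaving out 1 animal gave -0.14 without GnRH female 9, -0.05 without GnRH female 10 and -0.06 without placebo male 15. It was 0.01, with 48 of 91 above 0, when the ribosomal protein mean was a covariate.

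Males and females were also set against each other within each treatment. Within placebo 0 of 91 members passed, against 0.047% of all genes, and 0 members had an unadjusted p under 0.05, against 3.07% of all genes. The male minus female difference was above 0 for 66 of 91 members, against 48.8% of all genes, with a median of 0.03. With the ribosomal protein mean as a covariate it was above 0 for 19 of 91, with a median of -0.04. The median ran from 0.0077 without placebo male 15 (50 of 91 above 0) to 0.06 without placebo male 12, and it also moved by over 1.5 times without placebo male 16 (0.01) or placebo female 2 (0.05), 4 (0.02) or 5 (0.01). Within GnRH 0 of 91 passed, against 0.0522% of all genes, and 3 members had an unadjusted p under 0.05, against 5.53%. There the difference was above 0 for 14 of 91, against 50.1% of all genes, with a median of -0.06. The median ran from -0.11 without GnRH female 9 (9 of 91 above 0) to -0.02 without GnRH female 10, where 30 of 91 were above 0, and was -0.04 with the covariate (18 of 91). The difference was below 0 for all 15 members of complex IV, with a median of -0.09. The 3 members X-linked in the annotation, Ndufa1, Ndufb11 and Cox7b, had male minus female differences between -0.06 and 0.05 within placebo and between -0.10 and 0.01 within GnRH, with adjusted p of 0.940 to 0.999.

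The subunits varied more from animal to animal than between groups. The mean of the 79 structural subunits, set against its mean over all 25 animals, was 0.04 ± 0.15 in GnRH females, -0.03 ± 0.065 in placebo females, -0.01 ± 0.079 in GnRH males and -0.0030 ± 0.10 in placebo males (SD, n = 6, 5, 8 and 6). The 3 highest animals were GnRH females 10, 7 and 6, at 0.21, 0.14 and 0.14, followed by placebo male 15 and GnRH male 24, both at 0.13. The lowest of all was also a GnRH female, number 9 at -0.18, and then came placebo male 12 at -0.15. GnRH females therefore held both ends of the range. The median SD within groups was 0.13 for the 91 members and 0.12 for all genes tested.

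**Figure D3:**
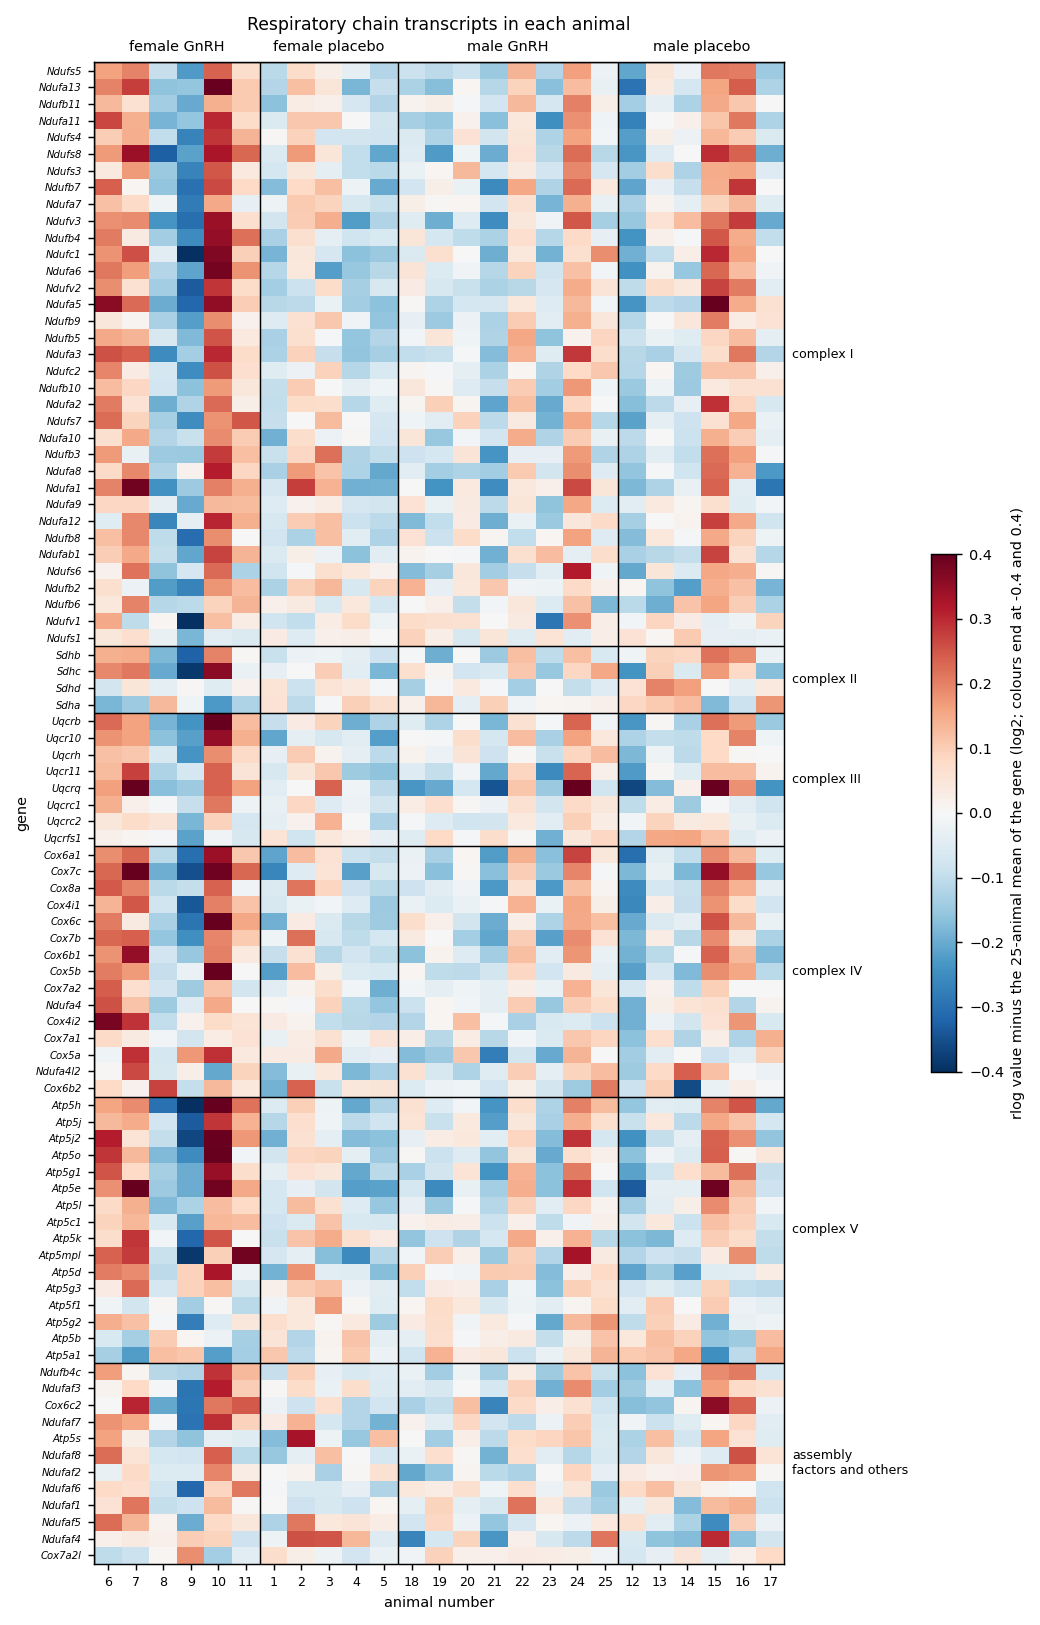
Level of 90 of the 91 genes in each of the 25 animals, as rlog minus the 25-animal mean of the gene (log2; red above, blue below, colours end at -0.4 and 0.4), with genes ordered by complex and animals by group. GnRH females 6, 7 and 10 and placebo male 15 appear as mostly red columns and GnRH female 9 and placebo male 12 as mostly blue ones, while Sdha, Atp5a1 and Atp5b run the other way.

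The complexes shared this pattern, apart from complex II. The correlations that follow were computed over the 25 animals on deviations from each group's mean, so differences between group means play no part in them. They describe values that share a library and its scaling, and no p is given. The median correlation over the 3081 pairs of structural subunits was 0.67, with 89.2% of pairs positive. It was 0.71 within a complex and 0.63 between complexes. Each subunit was also correlated with the mean of the other structural subunits, and the median of this r was 0.86, against 0.01 for the 19050 other genes tested. By complex the median r was 0.88 for complex I, 0.87 for complex III, 0.82 for complex IV, 0.81 for complex V and 0.28 for complex II. The assembly factors and others had 0.54. An r above 0.9 was reached by 26 of 79 structural subunits (32.9%) and by 111 of 19050 other genes (0.583%). With any 1 animal left out the median r stayed between 0.84 and 0.87, and without GnRH females 9 and 10 together it was 0.83.

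Cox6a1, of complex IV, followed the others most closely, with r = 0.97, and its animals show what the pattern looks like. It ran from 10.49 in GnRH female 9 to 11.13 in GnRH female 10 among GnRH females, against 10.58 to 10.91 in placebo females. In males it ran from 10.57 to 11.06 with GnRH and from 10.49 to 10.98 with placebo. Next came Ndufs5, an accessory subunit of complex I, and Uqcrb, which is part of complex III, both with r = 0.95, chosen for mention by these values.

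A few members went the other way, and they too are named because of their values. Sdha had r = -0.77 and Sdhd r = -0.35, while Sdhb, the iron-sulfur subunit, and Sdhc had r = 0.92 and 0.91, so the 4 genes of complex II did not vary together (median pair correlation -0.26). In complex V the catalytic core subunits α and β, Atp5a1 and Atp5b, had r = -0.72 and -0.45. Cox7a2l had r = -0.54. Ndufs1, the largest iron-sulfur subunit of complex I, was near 0, at 0.02. Atp5a1 ran from 12.78 to 13.12 in GnRH females and from 12.89 to 13.11 in placebo females, with GnRH females 7 and 10 lowest, where Cox6a1 was highest. Its lowest value of all, 12.75, was that of placebo male 15.

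Transcript length moved with this correlation throughout the table. Among 14994 other coding genes the median r was 0.48 for principal transcripts under 1000 bases, 0.30 from 1000 up to 2000, 0.06 from 2000 up to 3000, -0.13 from 3000 up to 4000, -0.35 from 4000 up to 6000 and -0.53 for 6000 and over. Of the 91 members 55 had transcripts under 1000 bases, with a median r of 0.88, and 27 had 1000 up to 2000 bases, with 0.74. The members' medians were thus above those of other genes of like length, which were not matched for level. Spearman's rho between mean level and r was 0.23 over the 91 members. Yet the highest members by mean rlog, Atp5a1 (13.00), Atp5b (12.61) and Sdha (12.16), all had r below 0. The next highest, Atp5d (11.62), had r = 0.57, and Sdhd, at 9.46, was also below 0. Sdha and Atp5a1 are among the 7 members of 2000 up to 3000 bases, whose r ran from -0.77 to 0.90 with a median of 0.65. The highest of these 7 was Atp5g1, whose length is not settled, so the median of this class is uncertain. Cox7a2l and Sdhd, under 2000 bases, went below 0 as well. Spearman's rho between length and r was -0.32 over the 91 members and -0.54 over the other coding genes. The 76 ribosomal protein genes, also short, had a median r of 0.85 with the subunit mean. Their own mean was highest in GnRH female 10 (0.17) and lowest in GnRH female 9 (-0.16). The female differences followed length too, with a median of 0.05 for other coding genes under 1000 bases and -0.04 for those of 6000 and over. The part of length, library quality or cell make-up in the shared variation was not tested, and no integrity value of single libraries was used here.

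**Figure D4:**
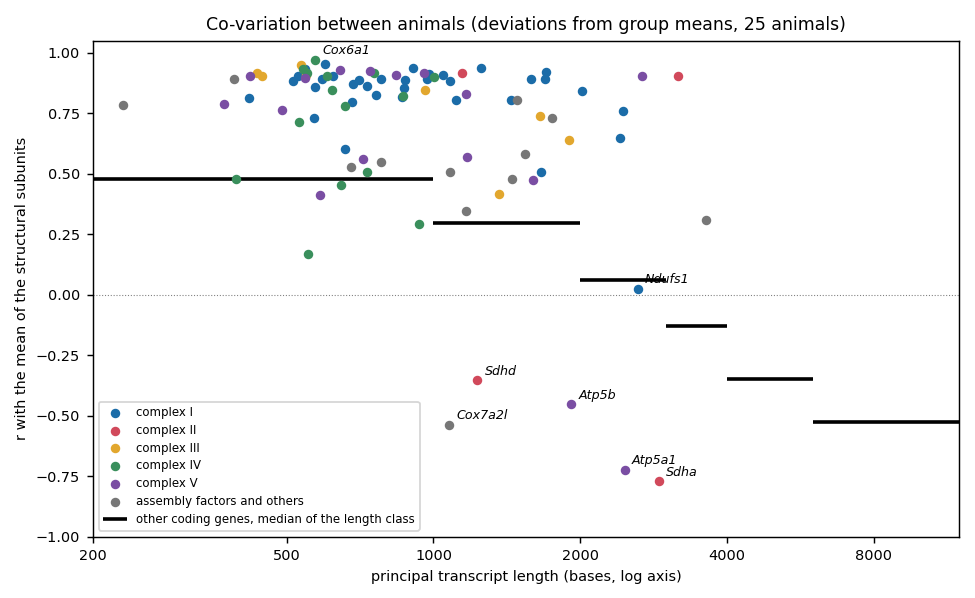
Correlation of 90 of the 91 genes with the mean of the other structural subunits over 25 animals (vertical axis, on deviations from group means) against principal transcript length (horizontal log axis, bases), coloured by complex, with black bars for the median of other coding genes in each length class. Most members lie above the bar of their length class, and Sdha, Atp5a1, Cox7a2l, Atp5b and Sdhd lie below 0.

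Promoters are shown for members at both ends of this range, because genes of the chain are known targets of the transcription factors NRF1, GABP (which binds ETS motifs), YY1 and the estrogen-related receptors. RefSeq promoter sequences, from 250 bases before to 50 after each start, were found for 74 of the 91 members (79 promoters, GRCm38.p6). Capitals mark the NRF1 core, which is GCGC, then A, any base and GCGC, or the ETS core CCGGAA, each on either strand. Cox6a1 (r = 0.97) lies at chr5:115348909-115349208 on the minus strand, Sdhb (r = 0.92) at chr4:140961021-140961320 on the plus strand, Uqcr10 (r = 0.91) at chr11:4704295-4704594 on the minus strand and Sdha (r = -0.77) at chr13:74350191-74350490 on the minus strand.
Cox6a1: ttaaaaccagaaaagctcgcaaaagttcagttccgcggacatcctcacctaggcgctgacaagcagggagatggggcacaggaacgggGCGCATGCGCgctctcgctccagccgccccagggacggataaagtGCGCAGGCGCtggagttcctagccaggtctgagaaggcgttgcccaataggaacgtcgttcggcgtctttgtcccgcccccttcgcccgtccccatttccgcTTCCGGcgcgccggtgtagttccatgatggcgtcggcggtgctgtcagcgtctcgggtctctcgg
Sdhb: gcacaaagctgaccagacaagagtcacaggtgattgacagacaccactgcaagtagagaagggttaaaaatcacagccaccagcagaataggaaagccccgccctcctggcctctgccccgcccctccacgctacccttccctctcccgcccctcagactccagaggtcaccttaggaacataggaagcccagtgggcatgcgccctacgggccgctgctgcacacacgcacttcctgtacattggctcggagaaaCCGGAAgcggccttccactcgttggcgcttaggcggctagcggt
Uqcr10: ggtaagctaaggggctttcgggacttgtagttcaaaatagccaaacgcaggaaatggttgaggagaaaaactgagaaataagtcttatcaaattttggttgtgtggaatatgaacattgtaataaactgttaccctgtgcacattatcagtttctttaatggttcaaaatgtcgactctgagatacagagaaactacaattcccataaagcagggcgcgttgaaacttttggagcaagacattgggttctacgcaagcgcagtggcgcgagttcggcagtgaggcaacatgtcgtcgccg
Sdha: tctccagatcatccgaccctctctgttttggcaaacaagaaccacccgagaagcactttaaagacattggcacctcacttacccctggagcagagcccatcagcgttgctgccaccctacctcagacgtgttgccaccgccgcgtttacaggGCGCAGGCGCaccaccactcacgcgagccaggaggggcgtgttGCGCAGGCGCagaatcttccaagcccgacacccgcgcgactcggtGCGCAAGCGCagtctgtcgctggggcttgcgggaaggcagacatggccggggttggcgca

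Cox6a1 held 2 NRF1 cores and 1 ETS core, Sdhb 1 ETS core and Uqcr10 none of either. Sdha, which varied against the other subunits, held 3 NRF1 cores, the most of these 4. Among members not printed, Ndufs5 (r = 0.95) and Atp5h (r = 0.93) held 1 NRF1 core each. Ndufb4 (r = 0.89) held 3, so that number is not particular to Sdha. Over all 79 member promoters the NRF1 core was found in 25.3%, against 4.6% of the 32851 promoters in the table and 6.38% of those of protein-coding genes. The ETS core was in 35.4% of member promoters, against 14.9% of all and 18.7% of those of protein-coding genes. The YY1 core AANATGGC was in 24.1%, against 6.05% of all and 6.37% of those of protein-coding genes. The motif TCAAGG of estrogen-related receptors was in 20.3%, against 14.4% of all and 13.3% of those of protein-coding genes. The motifs were searched apart and on both strands. A match describes these letters only and is not evidence of binding.

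Regulators of mitochondrial genes, among them factors that bind these motifs, did not pass the test. In females the GnRH minus placebo difference was 0.03 for Ppargc1a, the coactivator of mitochondrial biogenesis, and -0.05 for Nrf1. It was -0.10 for Gabpa, the DNA-binding part of GABP, and 0.07 for Esrra, an estrogen-related receptor. Yy1 had -0.07 and Tfam, which packages and transcribes mitochondrial DNA, had -0.01. Adjusted p ran from 0.686 to 0.956 in females and was 0.999 for each of the 6 in males. Of 18 biogenesis regulators 0 passed in either sex, 9 had a difference above 0 in females and 10 in males, and their median r with the subunit mean was -0.01.

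The rest of the pathway gave few calls, beside 0.0993% of all genes called in females and 0.496% in males. The 13 protein-coding transcripts of the mitochondrial genome had 0 called, 11 differences above 0 in females (median 0.14) and 3 in males (median -0.03). Their mean was highest in GnRH female 7 (0.62 above the 25-animal mean) and placebo male 15 (0.50) and lowest in GnRH female 9 (-0.32), and their median r with the nuclear subunits was 0.64. Of 36 further assembly factors 0 passed in either sex, with 15 differences above 0 in females and 16 in males. The 14 genes of cytochrome c, cytochrome c1, electron transfer flavoprotein and coenzyme Q synthesis had 0 called (7 above 0 in females, 6 in males). Among them Cyc1, the complex III subunit outside the symbol rule, had differences of 0.07 in females and -0.04 in males. The 13 genes of the citric acid cycle had 0 called (4 above 0 in females, 5 in males). Of 17 glycolysis genes 0 passed in females and 1 was lower in males, and their median r with the subunit mean was -0.11, against 0.43 for the citric acid cycle.

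**Figure D5:**
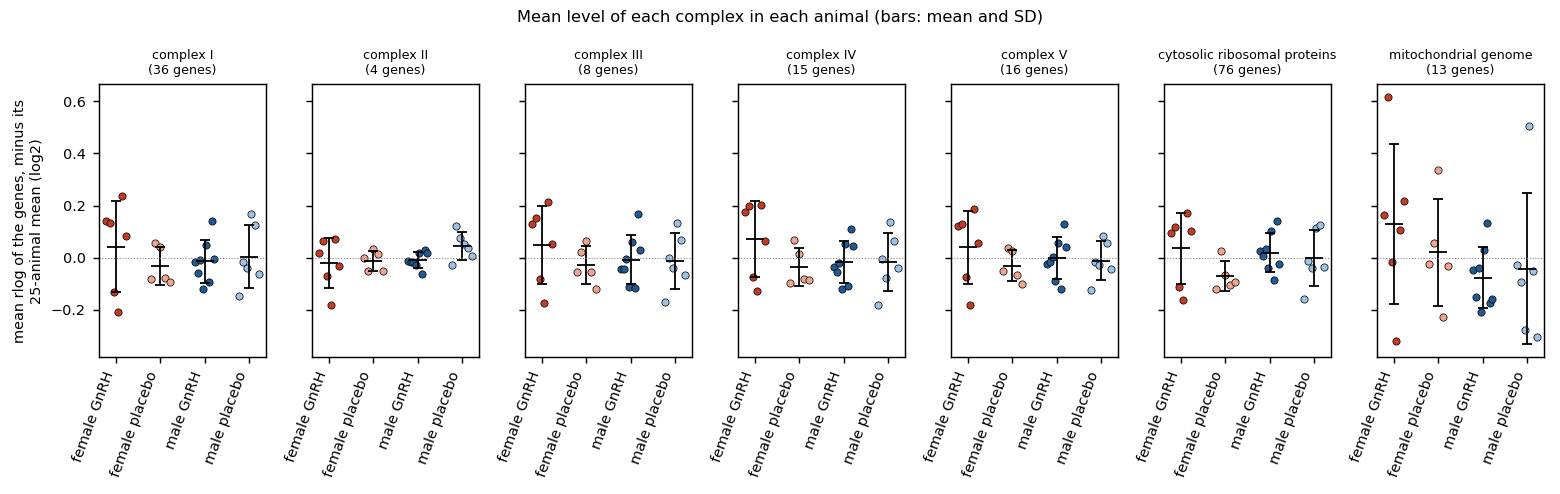
Mean rlog of the genes of each complex in each animal, set against its mean over 25 animals (vertical axis, log2), beside cytosolic ribosomal proteins and the mitochondrial genome, with bars for mean and SD by group. Points of GnRH females spread most widely in every panel, from -0.21 to 0.24 in complex I, and overlap those of placebo females.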

How the data were processed

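The authors deposited 1 table of rlog values, log2 expression scaled between libraries, for 47069 genes and 25 pituitary libraries. The submitters' processing notes name STAR, featureCounts, bcl2fastq and the build mm10, and their versions, the annotation and the strand setting were not given in the sources used here. Reads shared with pseudogenes or paralogs may have been split by the counting, and the chain's genes have many, so single small genes are uncertain. The submitters report the raw data as lost, so read depth and counting error are unknown. Labels do not name litters or cages, and p-values measure the spread between these animals.

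All 25 animals entered 1 linear model (limma 3.58.1, R 4.3.3) with a mean for each of the 4 groups, 21 residual degrees of freedom and a variance trend on the mean. Genes with a mean rlog of at least 3 were tested, two-sided, in 6 contrasts, with Benjamini-Hochberg adjustment over all 19141 genes and a threshold of 0.05. Every adjusted p is from this model, unless a fit without an animal or with the ribosomal protein covariate is named. Tested on simulated data with 19141 genes, it found 97% of the genes given a log2 change of 0.5 for females, with 2.97% false calls, and 92% for males, with 3.52%.

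Symbols are those of the deposited table. Positions, gene types and lengths came from GENCODE M21 (mm10), with 46574 IDs matched. Length is the median over principal transcripts. Promoters are RefSeq's (GRCm38.p6); Atp5a1, Atp5mpl, Cox4i1, Cox4i2, Cox6c, Cox6c2, Ndufa2, Ndufa4l2, Ndufaf6, Ndufb4c, Ndufb9, Ndufs1, Sdhc, Uqcrb, Uqcrc2 and Uqcrq had no entry. Named genes were any member called, the smallest p per complex in the female, male and difference contrasts, the paralog families, and 6 regulators whatever their values. Values of 1 member are not reported here by name, and figures leave it out; it is in all counts. The members and lists were chosen with earlier results of these data known. Alternatives were quantile normalization, other minimums (none, and a mean of 6), no variance trend, robust empirical Bayes, only the animals of a contrast, structural subunits alone, each animal left out, and, added after the values were seen, the ribosomal protein covariate.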

Additional observations from a re-analysis of the deposited data

Results flagged for a closer look

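Of 156 groups of values checked, covering the named genes, the mean of all structural subunits and the mean of each class of members in the 4 groups, 6 held a single animal far from the rest of its group, and chance alone marks about 1 in 20 groups. Atp5d was 11.44 in GnRH male 23, below the other 7 GnRH males. Cox7a2l was 11.49 in GnRH male 19, above its group. Atp5g3 was 11.35 in placebo male 15, above the other 5 placebo males. Cox6b1 was 10.74 and Cox7b 10.26 in placebo female 2, both above the other 4 placebo females. Nrf1 was 8.716 in GnRH female 7, below the other 5 GnRH females. No difference between the sexes in the effect of GnRH passed a test.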

How the results depend on the processing

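No paired analysis was possible because the labels number the animals 1 to 25 and no number is shared between groups. Under the alternatives run, the number of members called stayed at 0 in the female, male, difference and both sex contrasts. In the mean of both sexes it was 1 without placebo female 2 (Atp5d; 0 to 1 over the 25 fits with an animal left out) and 1 with the ribosomal protein covariate (Sdhb, difference -0.11, adjusted p = 0.0471 by limma). That covariate was itself higher on average in GnRH than in placebo females. With it the median difference in females was -0.036, against 0.068 in the model as described. With 1 animal left out, the female median ran from 0.037 to 0.12. Of 64 differences of named genes, 6 turned sign with quantile normalization and 22 in at least 1 fit without an animal; the largest of these was 0.041 in size. Restriction to a contrast's own animals applies to neither the difference nor the mean of both sexes, which use all groups. Causes were not tested. Limits are the shrunken scale, unknown depth and 5 to 8 animals a group.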
